A study of Mus musculus with 6 samples.

Results

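The nuclear genes for the proteins of the mitochondrial ribosome were followed in mouse liver. The mice were with or without a form of IRF3 in hepatocytes that is active without infection. Members were all rows of the count table whose Ensembl identifier carries a mouse symbol in GENCODE M21 that begins with Mrpl or Mrps and a digit, which gave 75 of 20894 rows. By symbol, 48 belong to the large and 27 to the small subunit. The symbol rule uses no measured value, although the family was chosen with earlier results of these data known. Of the 75 members, 71 passed the filter on low counts, 45 of the large and 26 of the small subunit. The 4 that did not pass were Mrpl9, Mrpl20, Mrpl52 and Mrps5, with at most 23 counts in any library. Mrpl33, Mrps9 and Mrps34, which match the symbol rule but have no row, were not analysed here.

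Both groups carried the Irf3 LSL-2D allele, in which a Cre-removable stop precedes a form of IRF3 that is active without infection. IRF3 is the transcription factor that starts the type I interferon response. IRF3-2D mice received AAV8-TBG-Cre and Ctrl mice AAV8-TBG-GFP, adeno-associated virus vectors whose TBG promoter works in hepatocytes. All were given ethanol at 3 g/kg by intraperitoneal injection and their livers were taken 2 h later, so both groups had ethanol, with 3 libraries each. No group had Cre but lacked the allele, so effects of Cre against GFP and of active IRF3 cannot be told apart.

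Mitochondria keep a ribosome of their own, of bacterial descent, which makes the few membrane proteins of oxidative phosphorylation that mitochondrial DNA encodes. Its RNAs come from the mitochondrial genome, while its proteins are encoded in the nucleus, made in the cytosol and imported. Many of them have bacterial counterparts and others are found only in mitochondria. Hepatocytes are rich in mitochondria, and their ribosome proteins have to be supplied together with the mitochondrially made RNAs.

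The libraries held 12054096 to 14830629 counts. The 20 most abundant genes took 33.5% to 35.7% of a Ctrl library and 22.5% to 24.5% of an IRF3-2D library. TMM factors, which correct for such a shift in composition, were between 0.822 and 0.879 for Ctrl libraries and between 1.12 and 1.23 for IRF3-2D libraries, so that the choice of scaling moved every gene in the same direction. The median log2 fold change of all 10802 tested genes was 0.03 with TMM and 0.49 with library totals alone. Irf3, the gene of the allele, was at 49.7 ± 9.34 counts per 1000000 (CPM, here with TMM) in Ctrl and 120 ± 15.3 in IRF3-2D, a log2 fold change of 1.27 ± 0.16 (SE; edgeR adjusted p = 0.00152), although the counts do not separate the allele from the native gene. Markers of hepatocytes, the main cells of liver, summed to between 139330 and 183681 CPM in Ctrl libraries and between 71488 and 84646 in IRF3-2D libraries, with 6 of 7 called lower with TMM and 1 higher. Kupffer cell and macrophage markers summed to between 393 and 449 CPM in Ctrl and between 484 and 668 in IRF3-2D, with 3 of 9 called higher and none at 0 in all libraries. Sinusoidal endothelial markers summed to 419 to 434 and 274 to 347 CPM, with 4 of 6 called lower. With library totals the same sums were 114556 to 161452 CPM in Ctrl and 87632 to 95007 in IRF3-2D for hepatocytes (3 called lower and 1 higher), 339 to 394 and 543 to 819 for macrophages (7 higher), and 357 to 375 and 308 to 426, which overlap, for endothelial cells (0 lower and 1 higher). With TMM, of the stellate markers 1 of 5 was called lower and of the 5 cholangiocyte and 4 erythroid markers none, while T and NK cell, B cell and neutrophil markers summed to at most 3.52 CPM each. Whether these shifts have a part in the values of the mitoribosomal genes was not tested, and in bulk liver fewer cells of a type and less RNA per cell cannot be told apart.

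Most mitoribosomal genes were not called between the groups. With TMM, 4 members were called higher and 5 lower in IRF3-2D at an adjusted p under 0.05 by edgeR's quasi-likelihood test, 9 of 71 or 12.7%. Over all tested genes 26.3% were called, 13.2% higher and 13.1% lower. Higher were Mrps2, Mrpl35, Mrpl27 and Mrpl43, by 1.25 to 1.43 times. Lower were Mrpl28, Mrpl30, Mrpl39, Mrpl4 and Mrpl34, by 1.33 to 1.59 times.

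The median log2 fold change of the members was -0.02, with 35 above and 36 below 0. Fold changes spread less among them than among genes at large: 63 of the 71, or 88.7%, lay within 0.5 of 0 on the log2 scale, against 60.4% of all tested genes. The members also varied less between replicates, with a median coefficient of variation of 9.32% in Ctrl and 8.07% in IRF3-2D, against 15.7% and 13.1% over all tested genes. In these comparisons the members and all tested genes were not matched for count level. At an unadjusted p under 0.05 stood 21.1% of the members and 38.5% of all genes. IRF3-2D values lay wholly above Ctrl for 9 members and wholly below for 12, together 29.6% of those tested, where 44.9% of all genes had no overlap, 23.7% above and 21.2% below. DESeq2 called 3 members higher and 5 lower (29.8% of all genes, 13.8% higher and 16% lower), and limma-voom called 3 and 5 as well (26.5% of all genes, 13.2% higher and 13.3% lower).

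**Figure D1:**
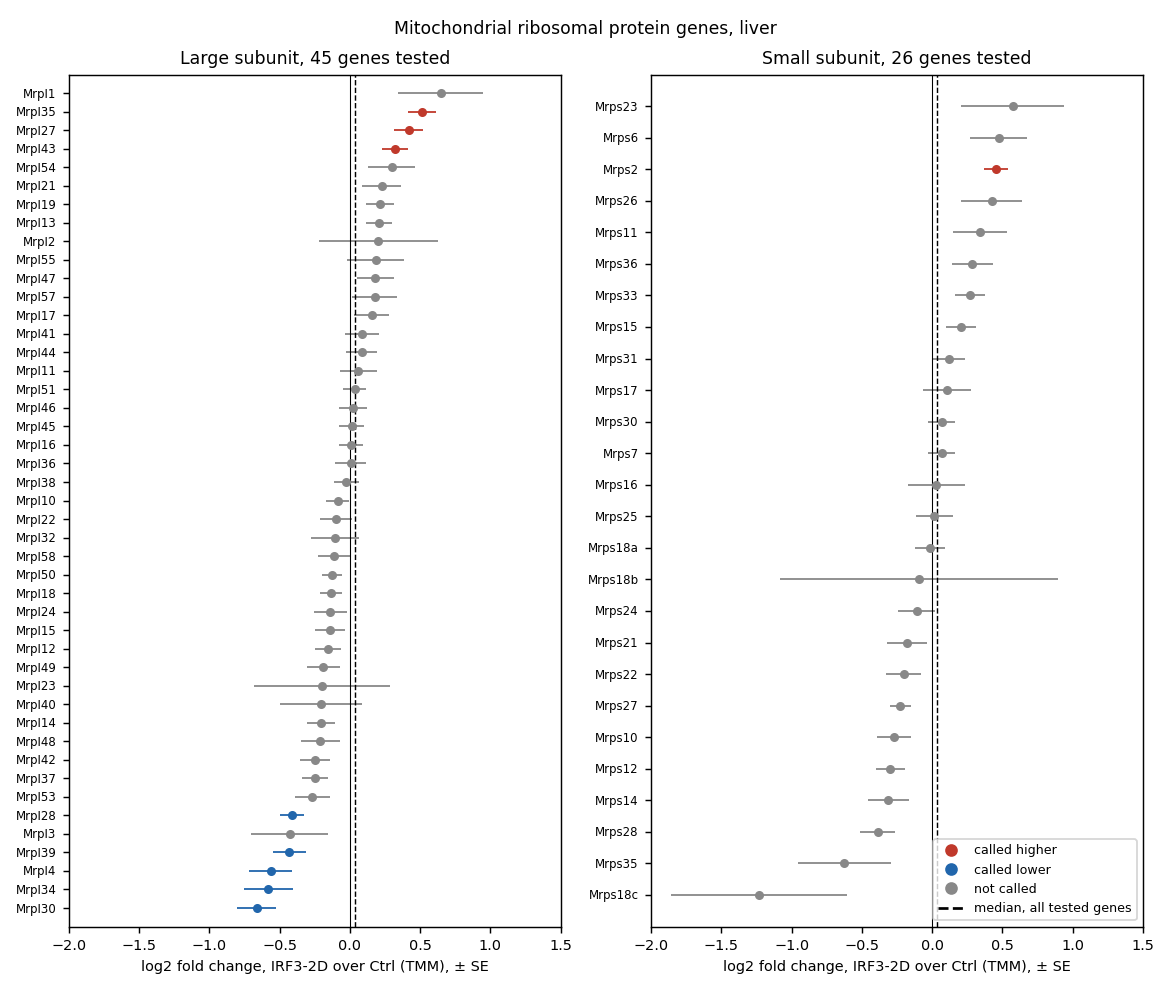
Log2 fold change of IRF3-2D over Ctrl with TMM (x axis, points with SE bars) for the 45 large and 26 small subunit genes tested (rows, ordered by fold change). Most lie within 0.5 of the solid line at 0; red marks the 4 genes called higher, blue the 5 called lower, and the dashed line the median of all tested genes.

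Whether the subunits differ from each other was not tested, and their values are given side by side. In the large subunit 3 of 45 genes were called higher and 5 lower, with a median log2 fold change of -0.09. In the small subunit 1 of 26 was called higher and 0 lower by edgeR, with a median of 0.02; 3 small subunit genes were lower at an unadjusted p under 0.05, and DESeq2 and limma-voom called 0 lower as well. The ratio of large to small subunit counts needs no scaling between libraries. It was 2.14, 2.26 and 2.28 in Ctrl and 2.08, 2.17 and 2.12 in IRF3-2D, a mean of 2.22 ± 0.0742 and 2.12 ± 0.0452 (SD, n = 3 a group), and the groups overlapped. Mrps18a and Mrps30 lie in the large subunit of the assembled ribosome despite their names. The calls, medians and ratio above follow the symbols and count both genes with the small subunit. With TMM Mrps18a and Mrps30 were at log2 fold changes of -0.02 and 0.07, neither called, and with library totals both were called higher.

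How the libraries are put on one scale decided whether the genes appeared level or raised. Summed over all members, the level with TMM was 1917, 1866 and 1874 CPM in Ctrl and 1844, 1765 and 1907 in IRF3-2D, 2 overlapping ranges. As a plain share of the library it was 1685, 1534 and 1618 CPM in Ctrl and 2148, 2164 and 2141 in IRF3-2D, 1.33 times as much, with no overlap. With library totals alone 41 members (27 large and 14 small subunit genes) were called higher and 0 lower by edgeR (none lower at an unadjusted p under 0.05 either), 57.7% of those tested, where 46.9% of all genes were called, 41.6% higher and 5.29% lower. IRF3-2D values then lay wholly above Ctrl for 51 members and below for 0, where 58.9% of all genes had no overlap, 51.7% above and 7.16% below. The median log2 fold change of all 71 tested members became 0.44, with 0.36 over the large and 0.47 over the small subunit. Relative to the median of all tested genes the members stood at -0.05 under either scaling. That match is given by arithmetic, since a change of scaling shifts all genes nearly alike. All 4 genes called higher with TMM were also called with library totals, and none of the 5 called lower was. Of the 41, 8 had a TMM log2 fold change below 0.

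**Figure D2:**
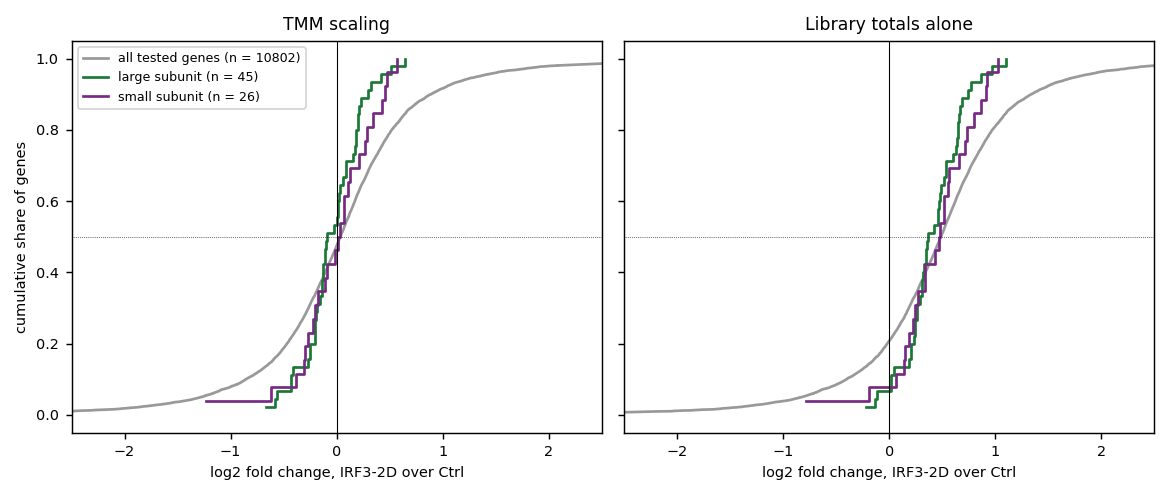
Cumulative share of genes (y axis) against the log2 fold change of IRF3-2D over Ctrl (x axis), with TMM on the left and library totals alone on the right, for all 10802 tested genes (grey), the large (green) and the small subunit (purple). The subunit curves are steeper than the grey curve and cross a share of 0.5 near it; with library totals all 3 curves lie to the right, with a median of 0.49 for all genes and 0.44 for the members.

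The promoters of the called genes are shown first, since members of the family are spread over 17 chromosomes and have no location in common. RefSeq windows on GRCm38.p6 from 250 bases before to 50 after a gene's start were found for 67 of the 75 members, 73 windows in all, and not for Mrpl4. Searched on both strands were the ETS factor motif CCGGAAG, the YY1 motif AAGATGGC, the NRF1 motif (GCGCA and GCGC with any 1 base between), and the core of the interferon-stimulated response element bound by IRF proteins (GAAA and GAAA with any 2 bases between). NRF1 and the ETS factor GABP are known regulators of nuclear genes for mitochondrial proteins. Of the 9 called members 6 had a match, and 30 bases around each match are given 5′ to 3′ on the gene's strand, with the matched letters in capitals.
Mrpl27 ETS, chr11:94653725-94653754, plus strand: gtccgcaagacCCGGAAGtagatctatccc
Mrpl43 ETS, chr19:45006480-45006509, minus strand: tcgcggtgactCCGGAAGcaaaactctcca
Mrpl43 ETS, chr19:45006436-45006465, minus strand: caaccccggaaCCGGAAGtcaccggttagt
Mrpl34 ETS, chr8:71464878-71464907, plus strand: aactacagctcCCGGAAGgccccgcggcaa
Mrpl30 NRF1, chr1:37890384-37890413, plus strand: tgacgccgctGCGCCTGCGCtgtcttctat
Mrpl39 NRF1, chr16:84735350-84735379, minus strand: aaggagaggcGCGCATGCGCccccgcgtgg
Mrpl35 YY1, chr6:71823743-71823772, minus strand: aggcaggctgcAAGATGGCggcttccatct
In Mrpl30 the match reads as the motif's reverse complement. The same ETS letters stand before the RefSeq starts of genes called higher (Mrpl27 and Mrpl43) and of 1 called lower (Mrpl34). The NRF1 letters stand before those of 2 genes called lower. Most members with these letters were not called: 21 with ETS, 9 with NRF1 and 11 with YY1 letters. The ETS match began 55 bases before the start of Mrpl27, 37 before that of Mrpl34, and 56 and 12 before that of Mrpl43. The YY1 match of Mrpl35 began at base 24 of the RefSeq transcript. Starts in this part are those of RefSeq and can differ from the GENCODE M21 coordinates given below. The matches of Mrpl39 and Mrpl35 lie inside the GENCODE spans of these genes.

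Mrps2 and Mrpl28 had none of the 4 motifs in their windows, and went in opposite directions. The 150 bases before their start, and those of Mrpl34 with its ETS match in capitals, were as follows.
Mrps2, chr2:28467916-28468065, plus strand: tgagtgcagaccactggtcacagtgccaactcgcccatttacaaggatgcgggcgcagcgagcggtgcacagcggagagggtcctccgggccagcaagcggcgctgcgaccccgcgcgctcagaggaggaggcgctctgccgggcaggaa
Mrpl28, chr17:26123353-26123502, plus strand: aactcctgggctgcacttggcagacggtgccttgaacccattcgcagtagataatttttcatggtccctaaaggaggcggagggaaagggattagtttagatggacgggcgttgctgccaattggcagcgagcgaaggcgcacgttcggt
Mrpl34, chr8:71464776-71464925, plus strand: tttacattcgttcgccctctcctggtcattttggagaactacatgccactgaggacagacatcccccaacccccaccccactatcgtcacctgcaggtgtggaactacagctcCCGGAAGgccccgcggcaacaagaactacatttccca
Across the family the ETS letters were in 34.2% of member windows, against 16.6% of windows of all tested genes. The NRF1 letters were in 16.4% against 9.30%, and the YY1 letters in 16.4% against 4.21%. At least 1 of these 3 motifs was in 56.2% of member windows and 26.7% of those of tested genes. The interferon element core was in 4.11% against 3.43%. The members with it were Mrpl20, which was not tested, and Mrps18c and Mrps21, neither of which was called. These are matches of letters and not measured binding.

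Among the genes called higher, Mrps2 encodes the small subunit protein of the bacterial S2 family (ENSMUSG00000035772, chr2:28468066-28471178, plus strand, GENCODE M21 on GRCm38). It stood at 42.1, 39.6 and 37.9 CPM in Ctrl and 54.9, 57.8 and 51.3 in IRF3-2D. Every IRF3-2D library was above every Ctrl library. The rise from 39.9 ± 2.13 to 54.7 ± 3.27 (SD, n = 3 a group) was a log2 fold change of 0.46 ± 0.08 (SE; edgeR adjusted p = 0.00778), and with library totals it was 0.91. Mrps2 was the small subunit's only called gene with TMM, and its call held with each of the 6 libraries left out in turn.

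Mrpl35 encodes the large subunit protein of the bacterial L35 family (ENSMUSG00000052962, chr6:71812997-71826969, minus strand). Its levels were 24.7, 21.9 and 20.4 CPM in Ctrl and 30.9, 32.3 and 32.5 in IRF3-2D, with no overlap and little spread in IRF3-2D. The mean went from 22.3 ± 2.20 to 31.9 ± 0.866 (SD, n = 3 a group), which is a log2 fold change of 0.51 ± 0.10 (SE; edgeR adjusted p = 0.0107). The call held without each of the 6 libraries.

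Mrpl27 encodes the counterpart of bacterial L27, which lies near the peptidyl transferase centre (ENSMUSG00000024414, chr11:94653767-94660089, plus strand). It was at 32.6, 28.8 and 36.1 CPM in Ctrl and 43.9, 41.4 and 44.9 in IRF3-2D, again without overlap. The log2 fold change was 0.42 ± 0.10 (SE; edgeR adjusted p = 0.0237). The call held without Ctrl 3, while without Ctrl 1, Ctrl 2, IRF3-2D 1, IRF3-2D 2 or IRF3-2D 3 it was lost at 0.42, 0.34, 0.40, 0.45 and 0.38. Of its 31-base words 35.5% also occur in transcripts of other genes, mostly the pseudogene Gm6304, so its reads cannot be placed with certainty.

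Mrpl43 encodes a large subunit protein of mitochondria without a bacterial counterpart (ENSMUSG00000025208, chr19:45004829-45006442, minus strand). It was at 28.2, 28.2 and 29.6 CPM in Ctrl and 35.8, 32.7 and 39.0 in IRF3-2D, and the groups did not overlap. This was the smallest change among the called members, with a log2 fold change of 0.32 ± 0.09 (SE; edgeR adjusted p = 0.0438). It was not called by DESeq2 or limma-voom, nor with any 1 library left out, at 0.24 to 0.39. Its exons overlap those of Twnk, the mitochondrial DNA helicase, on the opposite strand, and Twnk was at 37.9 CPM in both groups (log2 fold change -0.00, adjusted p = 0.995 by edgeR).

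Among the genes called lower with TMM, Mrpl28 encodes the counterpart of bacterial L28 (ENSMUSG00000024181, chr17:26123500-26126613, plus strand). Its levels were 30.4, 32.4 and 33.0 CPM in Ctrl and 23.8, 24.7 and 23.5 in IRF3-2D, a clear separation with small spread on both sides. The mean fell from 31.9 ± 1.39 to 24.0 ± 0.626 (SD, n = 3 a group), which is a log2 fold change of -0.41 ± 0.09 (SE; edgeR adjusted p = 0.0126), and the call held without each of the 6 libraries. With library totals its log2 fold change was 0.04 (adjusted p = 0.746 by edgeR).

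Mrpl30 encodes the counterpart of bacterial L30 (ENSMUSG00000026087, chr1:37890477-37898535, plus strand) and had the largest change among the called members. It was at 20.4, 21.2 and 24.6 CPM in Ctrl and 13.8, 12.3 and 15.6 in IRF3-2D, so no IRF3-2D library reached the lowest Ctrl library. Its mean fell from 22.1 ± 2.23 to 13.9 ± 1.63 (SD, n = 3 a group), which is a log2 fold change of -0.66 ± 0.14 (SE; edgeR adjusted p = 0.0134). The call was lost without Ctrl 3 (-0.58) and without IRF3-2D 1 (-0.66), and with library totals (-0.22, adjusted p = 0.235 by edgeR). Mitd1, whose start lies 66 bases away on the other strand, had a log2 fold change of 0.43 (adjusted p = 0.128 by edgeR).

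Mrpl39, another mitochondria-specific protein of the large subunit (ENSMUSG00000022889, chr16:84717576-84735742, minus strand), was at 48.6, 38.8 and 47.8 CPM in Ctrl and 33.2, 31.1 and 36.1 in IRF3-2D. The groups did not overlap, but Ctrl 2 came close to IRF3-2D 3. The log2 fold change was -0.43 ± 0.11 (SE; edgeR adjusted p = 0.0317). The call was lost without Ctrl 1 (-0.37), Ctrl 3 (-0.39), IRF3-2D 1 (-0.43) or IRF3-2D 2 (-0.38), and with library totals the value was 0.02.

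Mrpl4 belongs to the L4 family, whose bacterial member lines the exit tunnel for the growing chain (ENSMUSG00000003299, chr9:21002738-21008839, plus strand). It was at 22.5, 18.0 and 18.6 CPM in Ctrl and 14.7, 11.5 and 13.8 in IRF3-2D, a log2 fold change of -0.57 ± 0.15 (SE; edgeR adjusted p = 0.0337). Mrpl34, the counterpart of bacterial L34 with 1 annotated transcript (ENSMUSG00000034880, chr8:71464959-71465747, plus strand), was at 19.3, 16.6 and 21.5 CPM in Ctrl and 13.4, 10.3 and 14.7 in IRF3-2D. Its log2 fold change was -0.58 ± 0.18 (SE; edgeR adjusted p = 0.0491). Neither gene's groups overlapped, yet both calls were lost without any 1 of the 6 libraries, at -0.65 to -0.46 for Mrpl4 and -0.70 to -0.44 for Mrpl34. With library totals they stood at -0.12 and -0.14.

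**Figure D3:**
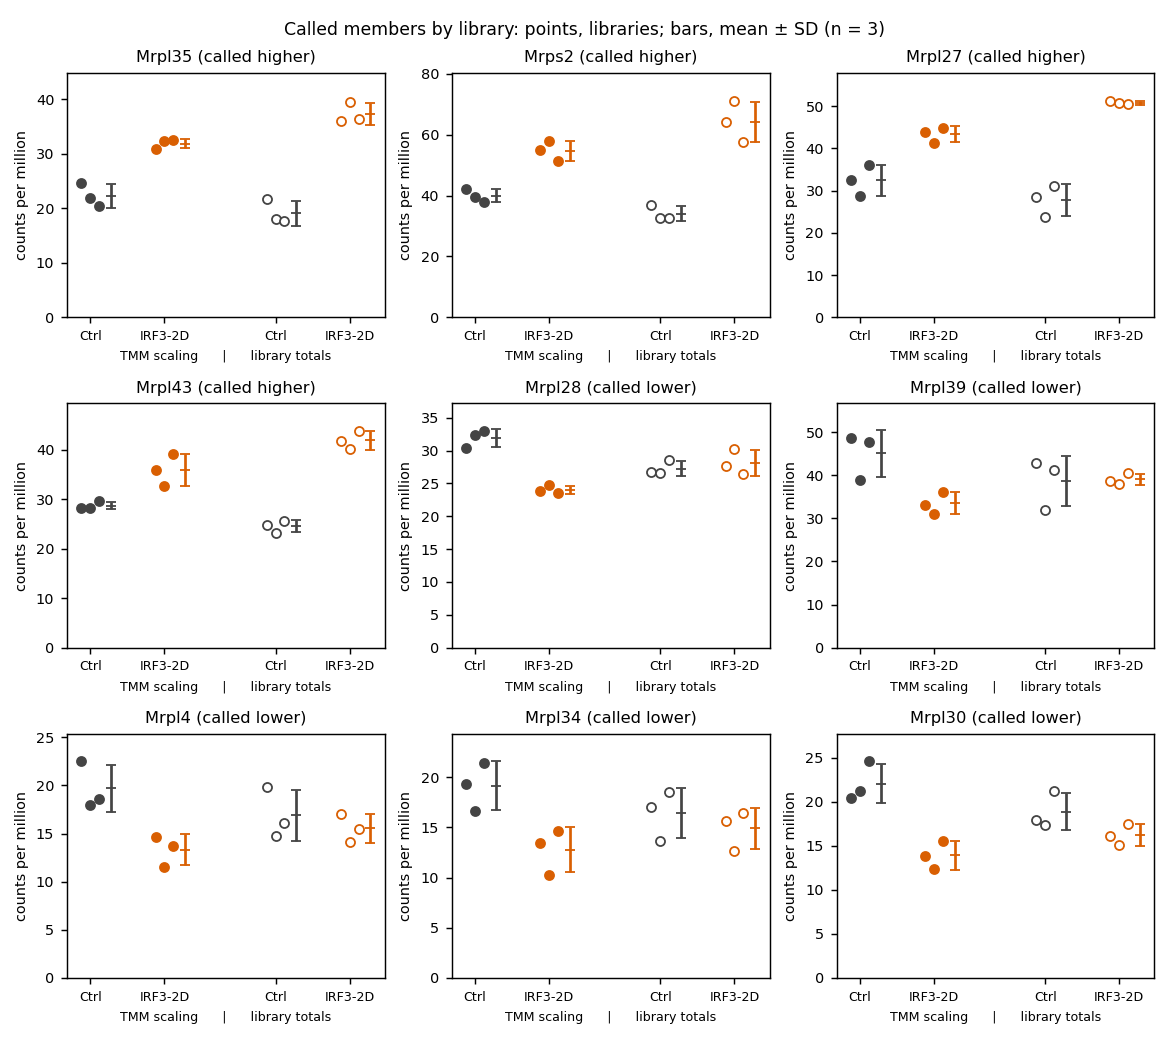
CPM (y axis, from 0) of the 9 called members in each library, with TMM (filled points) and with library totals (open points), Ctrl in grey and IRF3-2D in orange, and bars for mean ± SD (n = 3). With TMM no IRF3-2D point lies among the Ctrl points in any panel; with library totals the 4 genes called higher move further apart, while the 5 called lower overlap.

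Some uncalled members had changes as large, with more spread between libraries. Mrpl1, whose bacterial counterpart forms the mobile L1 stalk, had 67, 64 and 136 counts in Ctrl and 204, 150 and 158 in IRF3-2D, and Ctrl 3 was at 10.6 CPM, above IRF3-2D 2 and 3. Its log2 fold change of 0.65 (SE 0.30) was not called (adjusted p = 0.162 by edgeR), but without Ctrl 3 it was 1.05 (adjusted p = 0.0245 by edgeR). Mrps18c, 1 of 3 mitochondrial paralogs of bacterial S18, had the lowest value at -1.23 (SE 0.63, adjusted p = 0.195 by edgeR). It had 41, 31 and 15 counts in Ctrl and 28, 10 and 8 in IRF3-2D, which overlap. Of its 31-base words 32.8% also occur in transcripts of other genes, so its reads cannot be placed with certainty. The most are shared with Gm43511, whose exons overlap those of Mrps18c on the same strand. Mrps35, a mitochondria-specific protein of the small subunit, had 553 counts in Ctrl 1 against 209 and 301 in Ctrl 2 and 3, and 281, 247 and 321 in IRF3-2D. Its log2 fold change of -0.62 ± 0.33 (SE; edgeR adjusted p = 0.208) was not called. Mrps28 and Mrps27 stood nearest to the threshold among the uncalled, at -0.39 (adjusted p = 0.0571) and -0.23 (adjusted p = 0.0657) by edgeR, with no overlap between groups.

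Levels of different genes were compared per kb of annotated exon, as CPM per kb with TMM. In the large subunit Mrpl12, the protein of the ribosome's stalk where translation factors act, was highest at 57.0 ± 4.17 (SD, n = 3) in Ctrl and 51.2 ± 3.55 in IRF3-2D. Mrpl50 followed at 36.8 ± 1.81 and 33.7 ± 0.942, and Mrpl18 at 33.8 ± 0.892 and 30.9 ± 1.88. The next in Ctrl, Mrpl27 at 33.0 ± 3.68, was within its spread of Mrpl18, and in IRF3-2D it was second at 44.1 ± 1.87. Lowest in Ctrl were Mrpl1 at 1.67 ± 0.698, Mrpl2, whose bacterial counterpart helps shape the peptidyl transferase centre, at 0.554 ± 0.0491 and 0.639 ± 0.0478, and Mrpl23, of an exit tunnel family, at 0.443 ± 0.254 and 0.386 ± 0.0862. In Ctrl the last 2 could not be ordered given their spread, nor could Mrpl1 and the next gene, Mrpl3, at 1.74 ± 0.652. In IRF3-2D Mrpl1 was at 2.61 ± 0.395, above Mrpl40 (2.53 ± 0.449, within its spread) and Mrpl3 (1.29 ± 0.0707).

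In the small subunit Mrps21 was highest at 36.0 ± 0.594 in Ctrl and 31.8 ± 5.61 in IRF3-2D, followed by Mrps7, of the bacterial S7 family, at 28.9 ± 0.628 and 30.3 ± 3.16. Mrps12, of the S12 family at the decoding site, was the third in Ctrl at 25.3 ± 0.965 and was at 20.6 ± 1.66 in IRF3-2D. In IRF3-2D, Mrps21 and Mrps7 lay within each other's spread. Lowest were Mrps18c at 2.21 ± 1.03 and 0.932 ± 0.653, Mrps26 at 1.40 ± 0.260 and 1.88 ± 0.256, and Mrps18b, another S18 paralog, at 0.382 ± 0.331 and 0.359 ± 0.124, with a count of 0 in Ctrl 2. None of these 6 was called with TMM, while Mrps7 and Mrps26 were called higher with library totals. The level of Mrps18c is limited by the words it shares with other genes. From the highest to the lowest gene these levels spanned 129-fold in the large and 94.4-fold in the small subunit of Ctrl. With the median length of the coding transcripts as the divisor the top large subunit genes were Mrpl12 at 66.4, Mrpl42 at 66.1 and Mrpl17 at 65.2, so the order depends on which transcripts are assumed. The order over the members was nearly the same in both groups, with Spearman's rho of 0.975 over 71 genes, a description of points that share libraries and lengths.

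**Figure D4:**
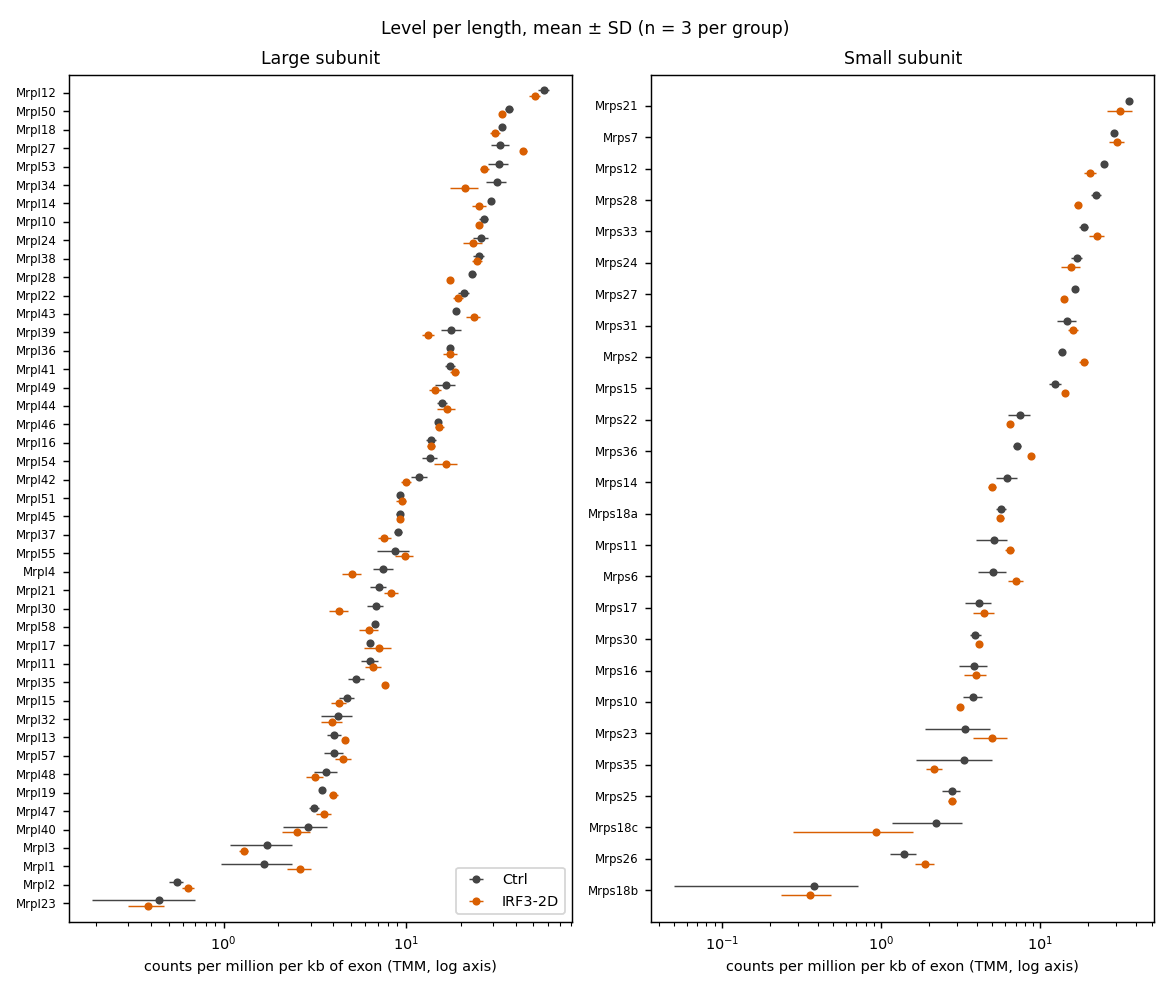
Level of each tested member in CPM per kb of exon (x axis, TMM, log axis), mean ± SD over 3 Ctrl (grey) and 3 IRF3-2D libraries (orange), with genes in rows by their level in Ctrl. The large subunit runs from Mrpl12 at 57.0 to Mrpl23 at 0.443 and the small subunit from Mrps21 at 36.0 to Mrps18b at 0.382, and most pairs of points lie close together.

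Many of these genes sit head to head with another gene. A start on the opposite strand within 1 kb was found for 32 of the 75 members (42.7%), against 10.9% of the protein-coding genes with a row and 15.6% of those tested. In 23 of these pairs both genes were tested, with the pair of Mrpl46 and Mrps11 counted from both sides. Partners called higher with TMM were Rab6a (beside Mrpl48), Apba3 (Mrpl54) and Ppp1r10 (Mrps18b), at log2 fold changes of 0.31, 0.37 and 0.38. Called lower were Klc4 (beside Mrpl2) at -0.44 and Tcp1, a subunit of the cytosolic chaperonin (beside Mrpl18), at -0.70. In 0 pairs were both genes called, in 2 the member alone and in 5 of the 23 the partner alone, where 26.3% of all tested genes were called. Exons of 31 members overlap another gene, in 27 cases on the opposite strand, and whether the counting used strand is not given in the sources used here.

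Genes that work with the mitochondrial ribosome were taken from 5 lists, given here with TMM. Of 5 mitoribosomal proteins with other symbols 0 were called by edgeR, DESeq2 or limma-voom, although 3 had an unadjusted p under 0.05 by edgeR. Among them Dap3, a GTP-binding protein of the small subunit, was at a log2 fold change of 0.24 (adjusted p = 0.0861 by edgeR), Ptcd3 at -0.27 and Chchd1 at -0.36. Their median was 0.02, close to that of the Mrp genes.

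Of 14 translation factors and associated proteins tested 3 were called lower and 0 higher by edgeR (2 higher at an unadjusted p under 0.05, and 0 by DESeq2 and limma-voom), with a median of -0.16. Over all tested genes 13.1% were called lower and 13.2% higher. Gfm1, elongation factor G1, which moves the ribosome along the mRNA, fell from 78.2 ± 5.69 to 54.9 ± 1.07 CPM (SD, n = 3 a group), which is a log2 fold change of -0.51 (adjusted p = 0.00425 by edgeR). Lrpprc, which stabilises mitochondrial mRNAs, fell from 267 ± 16.8 to 192 ± 14.8 CPM, and Taco1, an activator of cytochrome oxidase subunit I translation, from 28.3 ± 1.30 to 22.0 ± 0.545. The call of Taco1 was kept in 1 of the 6 fits that left out a library, without IRF3-2D 3, and lost in the others at -0.39 to -0.32. Tufm, elongation factor Tu, was at 114 ± 5.87 and 106 ± 6.37 and was not called. With library totals none of these 3 was called lower and 6 of the list were called higher, 42.9% where 41.6% of all tested genes were.

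Of 26 assembly and rRNA modification genes tested, 3 were called higher (11.5%, against 13.2% of all tested genes) and 1 lower, with a median of 0.21. With library totals 14 were called higher and 0 lower, 53.8% higher against 41.6% of all genes, with a median of 0.66. Ddx28, an RNA helicase of large subunit assembly, rose from 14.1 ± 0.899 to 23.5 ± 2.08 CPM (SD, n = 3 a group), which is a log2 fold change of 0.73 (adjusted p = 0.00507 by edgeR). Mpv17l2, an inner membrane protein of ribosome assembly, rose from 10.4 ± 0.641 to 16.8 ± 1.53, and Ngrn from 13.1 ± 0.968 to 18.3 ± 1.30. Rbfa, a ribosome-binding factor of small subunit maturation, fell from 39.5 ± 4.17 to 26.5 ± 1.76, at a log2 fold change of -0.57, which was -0.12 and uncalled with library totals. Of 18 aminoacyl-tRNA synthetase and amidotransferase genes 1 was called higher and 1 lower, 11.1% against 26.3% of all tested genes, and 8 higher and 0 lower with library totals (44.4% higher against 41.6%). Ears2, the glutamyl-tRNA synthetase, rose from 6.66 ± 0.290 to 11.3 ± 0.595 CPM (log2 fold change 0.76, adjusted p = 0.0126 by edgeR), a call lost without IRF3-2D 1 (0.72). Gatb, of the amidotransferase that makes glutaminyl-tRNA, fell from 22.6 ± 2.77 to 14.6 ± 1.12 CPM, a call lost without IRF3-2D 1 (-0.59) or 2 (-0.60) and with library totals (-0.17). Guf1, Trub2, Mettl17 and Rars2 did not pass the filter.

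The mRNAs that this ribosome translates were lower in IRF3-2D. All 13 mitochondrially encoded protein genes were called lower with TMM, with a median log2 fold change of -1.13, and 11 of them with library totals, at -0.68. mt-Cytb, cytochrome b, went from 12331, 13475 and 12887 CPM in Ctrl to 4087, 3589 and 4787 in IRF3-2D, a log2 fold change of -1.63 ± 0.12 (SE; edgeR adjusted p = 0.000182). Every Ctrl library was above every IRF3-2D library, with no overlap. mt-Nd4l was at -1.57 and mt-Atp8 at -1.36. Of the 31-base words of mt-Nd4l 98.9% also occur in transcripts of other genes. The share was 100% for mt-Co2, 99.9% for mt-Co3, 99.5% for mt-Atp6 and 98.1% for mt-Nd3. It was 63.9% for mt-Co1 and 62.8% for mt-Nd4, so the reads of all these genes cannot be placed with certainty. In mt-Nd1, mt-Nd6, mt-Cytb and mt-Atp8 at most 7.47% do. Of these mt-Nd6 was at -1.55 and mt-Nd1 at -0.50 with TMM, and mt-Nd1 was not called with library totals (-0.05). Relative to the median of all genes the encoded proteins stood at -1.16 with TMM and -1.17 with library totals, the nuclear mitoribosomal genes at -0.05 with both. Because scaling shifts all genes nearly alike, this match between the scalings is given by arithmetic and is no separate support.

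A ratio within each library needs no scaling. For each count of a mitoribosomal gene there were 68.4, 75.4 and 74.3 counts of mitochondrially encoded genes in Ctrl and 37.8, 36.4 and 41.1 in IRF3-2D. The mean was 72.7 ± 3.76 (SD, n = 3) in Ctrl and 38.4 ± 2.43 in IRF3-2D, 1.89 times lower, with no overlap. The ratio shows that the 2 kinds of RNA changed unequally and not which of them moved. As a share of library totals, mitochondrially encoded genes went from 11.7 ± 0.281% in Ctrl to 8.26 ± 0.481% in IRF3-2D (SD, n = 3). The mitoribosomal genes went from 0.161 ± 0.00758% to 0.215 ± 0.00119%.

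**Figure D5:**
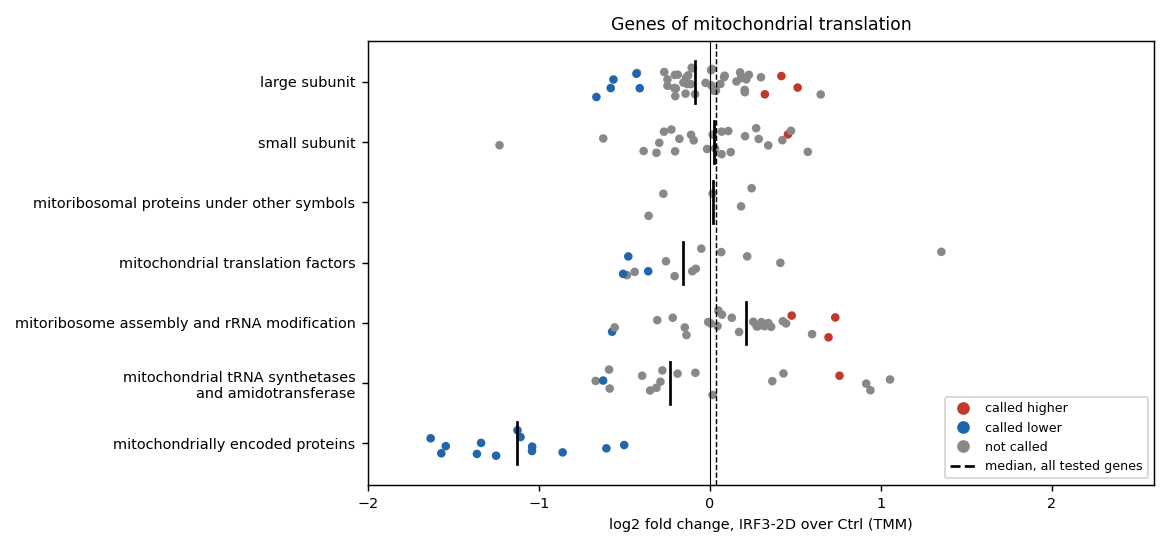
Log2 fold change of IRF3-2D over Ctrl with TMM (x axis) for each tested gene (points) of the large and small subunit and of the 5 related lists (rows), with list medians as black bars and genes called higher in red and lower in blue. The nuclear lists scatter around 0 with medians from -0.23 to 0.21, while the 13 mitochondrially encoded genes are all blue, with a median of -1.13.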

How the data were processed

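The authors deposited 1 table of estimated counts per gene for 6 liver libraries, not normalized; all values were whole, so they were used as rounded estimated counts. Per the labels' protocols, RNA was poly-A selected and libraries were strand-specific. The submitters' processing notes list the tool Salmon 1.2.1, the build GRCm38 and the build mm10 but give none a role. Annotation, strand setting and the summing of transcripts were not given in the sources used here. The labels do not say that replicates came from separate mice, so a p-value reflects variation among these samples only, possibly technical.

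Symbols, coordinates and exon lengths came from GENCODE M21; 20860 of 20894 identifiers matched, and the 34 others (at most 0.0049% of a library's counts) were kept under their identifier. The groups were compared with edgeR 4.0.16 (R 4.3.3; filterByExpr, TMM, quasi-likelihood F-test) over 10802 genes, with Benjamini-Hochberg adjustment and a threshold of 0.05; the SE follows from the log2 fold change and F. A count of 0 allows 0.202 to 0.249 CPM (3 counts), for counting error only. Replicates differed by more than sampling noise (chi-square per degree of freedom 18.9 to 110). The fit was tested on simulated data. Alternatives were other scalings and filters, DESeq2 1.42.0, limma-voom (limma 3.58.1), a replicate block and leaving out each library.

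Members and lists were chosen with earlier results of these data known. Named are all called members, the 3 highest and lowest per length in each subunit, members that failed the filter, and up to 3 called genes per related list; Mrps35, Mrps27, Mrps28, Mrpl3, Mrpl40, Mrpl42, Mrpl17, Tufm, Ngrn, mt-Nd1, mt-Nd6, mt-Co2, Ptcd3, Chchd1, Irf3 and the head-to-head partners were named after their values were seen. The other mitochondrially encoded genes given for their shared words were also named after their values were seen. Shared 31-base words were counted over GENCODE M21 transcripts.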

Additional observations from a re-analysis of the deposited data

How the results depend on the processing

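The scaling mattered most. With library totals alone 41 members were higher and 0 lower (27 and 0 large, 14 small), with 4497 and 571 of all genes, and medians of 0.437 for the members, 0.364 for the large and 0.473 for the small subunit. Members below 0 went from 36 with TMM to 5. Named genes called under either scaling that turned above 0 included Mrpl28 (0.044), Mrpl39 (0.016), Mrpl12 (0.294), Mrpl50 (0.325), Mrpl18 (0.322), Mrps18a (0.437), Tufm (0.347) and Taco1 (0.090). Those uncalled under both included Mrps12 (0.154), Mrps21 (0.269), Mrpl23 (0.234), Mrps18b (0.333), Mrps27 (0.227) and Mrps28 (0.067). With RLE factors 2 small subunit genes, Mrps27 (-0.25) and Mrps28 (-0.42), were called lower. Upper-quartile factors, scaling without mitochondrially encoded genes, DESeq2, limma-voom, no count filter and a mean count of at least 50 kept both member counts within 1.5 times. The cause of these differences was not tested.

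Leaving out each library in turn gave 2 to 4 members higher and 1 to 3 lower with TMM (large 1 to 3 higher and 1 to 3 lower, small 1 higher and 0 to 1 lower, all genes 851 to 1312 higher and 926 to 1363 lower), and medians of -0.055 to 0.014 for the members, -0.085 to -0.001 for the large and -0.029 to 0.062 for the small subunit. A fit on fewer libraries has less power. Mrps2, Mrpl35 and Mrpl28 kept their calls throughout. Mrps10 was called without Ctrl 1 (-0.38, adjusted p = 0.0361 by edgeR). With library totals, an alternative added after seeing the data, it gave 32 to 37 members higher and 0 lower (large 18 to 25, small 12 to 14, all genes 3463 to 4250 and 456 to 562), and medians of 0.413 to 0.462, 0.372 to 0.456 and 0.452 to 0.505.

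Samples with the same replicate number did not deviate together (correlations of 0.096, -0.0339 and 0.0449), so the numbers were not taken to pair them. With the replicate block 3 members were higher and 5 lower. The replicate block with library totals, added after seeing the data, gave 35 and 0 (23 and 0 large, 12 small), 3976 and 521 of all genes, and medians of 0.456, 0.366 and 0.502. Depth limits members with few counts, such as Mrps18b, Mrpl2 and Mrps18c.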
